A study of Mus musculus with 4 samples.

Results

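The genes described here belong to antigen presentation by MHC class I and to the interferon-inducible GTPases, 57 of the 22488 genes in the deposited tables. They were chosen by symbol: every H2- gene, every Gbp gene with a number, and B2m, Tap1, Tap2, Tapbp, Erap1, Psmb8, Psmb9, Psmb10, Nlrc5, Irgm1, Irgm2, Igtp and Iigp1. The symbols fall into 2 classical class I heavy chains, 22 nonclassical class I genes, 5 genes of the light chain and peptide loading, 3 immunoproteasome subunits, the transactivator Nlrc5, 10 guanylate-binding proteins (GBPs) and 4 immunity-related GTPases (IRGs). The H2- prefix also brings in 9 genes of class II and its peptide loading, and H2-Ke6, which is listed at 0 in every library.

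RNA was sequenced from cultured vascular smooth muscle cells of C57BL/6 mice at passages 4 to 10. The cells had received a scramble siRNA (2 libraries) or an siRNA against the circular RNA circEsyt2 (2 libraries) for 48 hours. Untransfected cells are not among the samples, so an effect of circEsyt2 siRNA and an opposite effect of scramble siRNA cannot be told apart. Whether the replicates came from separate cultures is not stated, and the p-values reflect the variation between these libraries alone, part of which may be technical. The level of circEsyt2 itself was not analysed here, because a gene table does not separate the circle from the linear transcript of its host gene Esyt2. In such bulk samples fewer cells of a type and less RNA per cell cannot be told apart.

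MHC class I molecules show peptides of intracellular proteins at the cell surface. The proteasome cuts the peptides, the TAP transporter carries them into the endoplasmic reticulum, and tapasin and ERAP1 help to load and trim them before the heavy chain leaves with its light chain, beta-2-microglobulin. Interferons raise most of these genes, and in the same response GBPs and IRGs, large GTPases that attack the vacuoles of intracellular microbes, are among the genes induced most. Nonimmune cells such as smooth muscle carry class I constitutively, whereas class II belongs mainly to dendritic cells, macrophages and B cells.

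The libraries held between 2516428 and 4116791 counts assigned to genes, as recovered from the digits of the FPKM values (fragments per kilobase of gene length per 1e+06 counts of the library). The circEsyt2 siRNA libraries were less alike (Pearson r = 0.931 across genes, which are not independent replicates) than the scramble libraries (r = 0.972). Of 10 smooth muscle markers 8 or 9 reached 1 FPKM in each library. All 6 fibroblast markers did so too, so presence at 1 FPKM does not tell the 2 cell types apart. Acta2, the smooth muscle actin gene, measured 1421 and 1446 FPKM with scramble siRNA against 883 and 829 FPKM with circEsyt2 siRNA. Hepatocyte markers stood apart in circEsyt2 siRNA replicate 1: the 10 genes summed to 3037 FPKM there, to 94.4 in replicate 2, and to 11.9 and 3.31 in the scramble libraries. For the called members and some others, values without that library are also given.

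The core letters of the interferon-stimulated response element stood in the promoter of every GBP and IRG gene that could be searched. This element is a short DNA site found in the promoters of many interferon-induced genes. Its core was searched as GAAA, 2 bases of any kind and GAAA again, on both strands, in windows from 250 bases before to 50 after each gene's start (RefSeq, GRCm38.p6), which held 46 of the 57 members. It was present in 12 of these 46 genes (26.1%) and in 3.99% of the 27025 genes in the table. All 5 GBP genes with a window and all 3 IRG genes with a window held it, as did B2m, Erap1, H2-T22 and H2-T23. Iigp1 and the GBP genes of chromosome 5, Gbp9 among them, had no window. Below, 8 such stretches are shown because these genes went different ways in the data, and the capitals mark the core on either strand.
Gbp3 (chr3:142559954-142560043, plus strand): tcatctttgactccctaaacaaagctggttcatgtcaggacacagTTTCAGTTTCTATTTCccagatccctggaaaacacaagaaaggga
Gbp2 (chr3:142620559-142620658, plus strand): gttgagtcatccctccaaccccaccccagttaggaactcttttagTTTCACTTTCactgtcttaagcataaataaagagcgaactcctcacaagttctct
Gbp7 (chr3:142530238-142530335, plus strand): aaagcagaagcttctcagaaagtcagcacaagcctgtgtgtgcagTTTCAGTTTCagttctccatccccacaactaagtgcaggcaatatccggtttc
Igtp (chr11:58199477-58199555, plus strand): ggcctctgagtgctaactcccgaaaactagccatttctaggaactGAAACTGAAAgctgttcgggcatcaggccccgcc
Irgm2 (chr11:58214868-58214967, plus strand): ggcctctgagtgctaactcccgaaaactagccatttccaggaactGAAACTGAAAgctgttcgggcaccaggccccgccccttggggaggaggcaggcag
Irgm1 (chr11:48871421-48871495, minus strand): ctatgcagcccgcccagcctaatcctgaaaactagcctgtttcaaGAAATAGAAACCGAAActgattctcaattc
H2-T22 (chr17:36042879-36042978, minus strand): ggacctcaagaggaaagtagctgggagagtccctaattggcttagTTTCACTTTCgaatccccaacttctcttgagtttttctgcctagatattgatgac
B2m (chr2:122147503-122147602, plus strand): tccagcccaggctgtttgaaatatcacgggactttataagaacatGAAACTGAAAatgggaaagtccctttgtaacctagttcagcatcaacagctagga

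Class I and class II promoters share another site, the Y box, which contains CCAAT and is bound by the factor NF-Y. CCAAT was present on either strand in 35 of the 46 member genes (76.1%) and in 41.1% of all genes in the table. Both classical class I genes and all 8 class II genes with a window held it. H2-D1, which held no such core, is shown with its CCAAT letters in capitals.
H2-D1 (chr17:35262973-35263072, plus strand): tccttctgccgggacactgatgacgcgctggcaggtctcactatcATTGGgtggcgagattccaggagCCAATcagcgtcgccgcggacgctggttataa

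Of the 57 members 40 had a mean of at least 1 FPKM over the 4 libraries and entered the test (limma on log2(FPKM + 1), Benjamini-Hochberg adjusted over 11290 genes, threshold 0.05). With circEsyt2 siRNA 8 of the 40 were lower, against 7.26% of all genes tested, and 1 was higher, against 5.47%. The 8 were Iigp1, Igtp, Irgm1, Gbp3, Gbp2, Gbp9, H2-T22 and H2-M3, and the 1 was H2-Q2. The median log2 fold change was −0.19 over the 40 members and 0.004 over all genes tested. The other 31 members did not pass the test, among them the classical heavy chains, B2m and every peptide loading and immunoproteasome gene. Of the 12 tested GBP and IRG genes 6 were lower and 0 were higher, with a median of −0.78. Of the 19 tested H2- genes 2 were lower and 1 was higher, with a median of 0.26. The H2- median includes H2-Q10, H2-Aa, H2-Ab1, H2-Eb1 and H2-M10.6 (2.33, 1.65, 1.32, 0.86 and −0.66). Without circEsyt2 siRNA replicate 1, the library with hepatocyte markers, these fell under the filter. An H2- median without them was not computed. Some markers of the cultured cells moved in the same direction as the GBP and IRG genes, and others did not. The 10 smooth muscle markers summed to 1935 and 1944 FPKM with scramble siRNA against 1246 and 1203 FPKM, and 6 of them (Acta2, Cnn1, Lmod1, Myh11, Smtn and Tpm2) were called lower by limma. Acta2 made up most of the smooth muscle sum, and Cald1 overlapped between groups. The 6 fibroblast markers summed to 699 and 630 FPKM against 474 and 530 FPKM, with Thy1, Pdgfra and Mfap5 called lower. Among them Dcn went the other way, at 184 and 190 FPKM against 205 and 192 FPKM, and Col1a1 overlapped between groups. The part of these shifts in the GBP and IRG values was not tested.

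**Figure D1:**
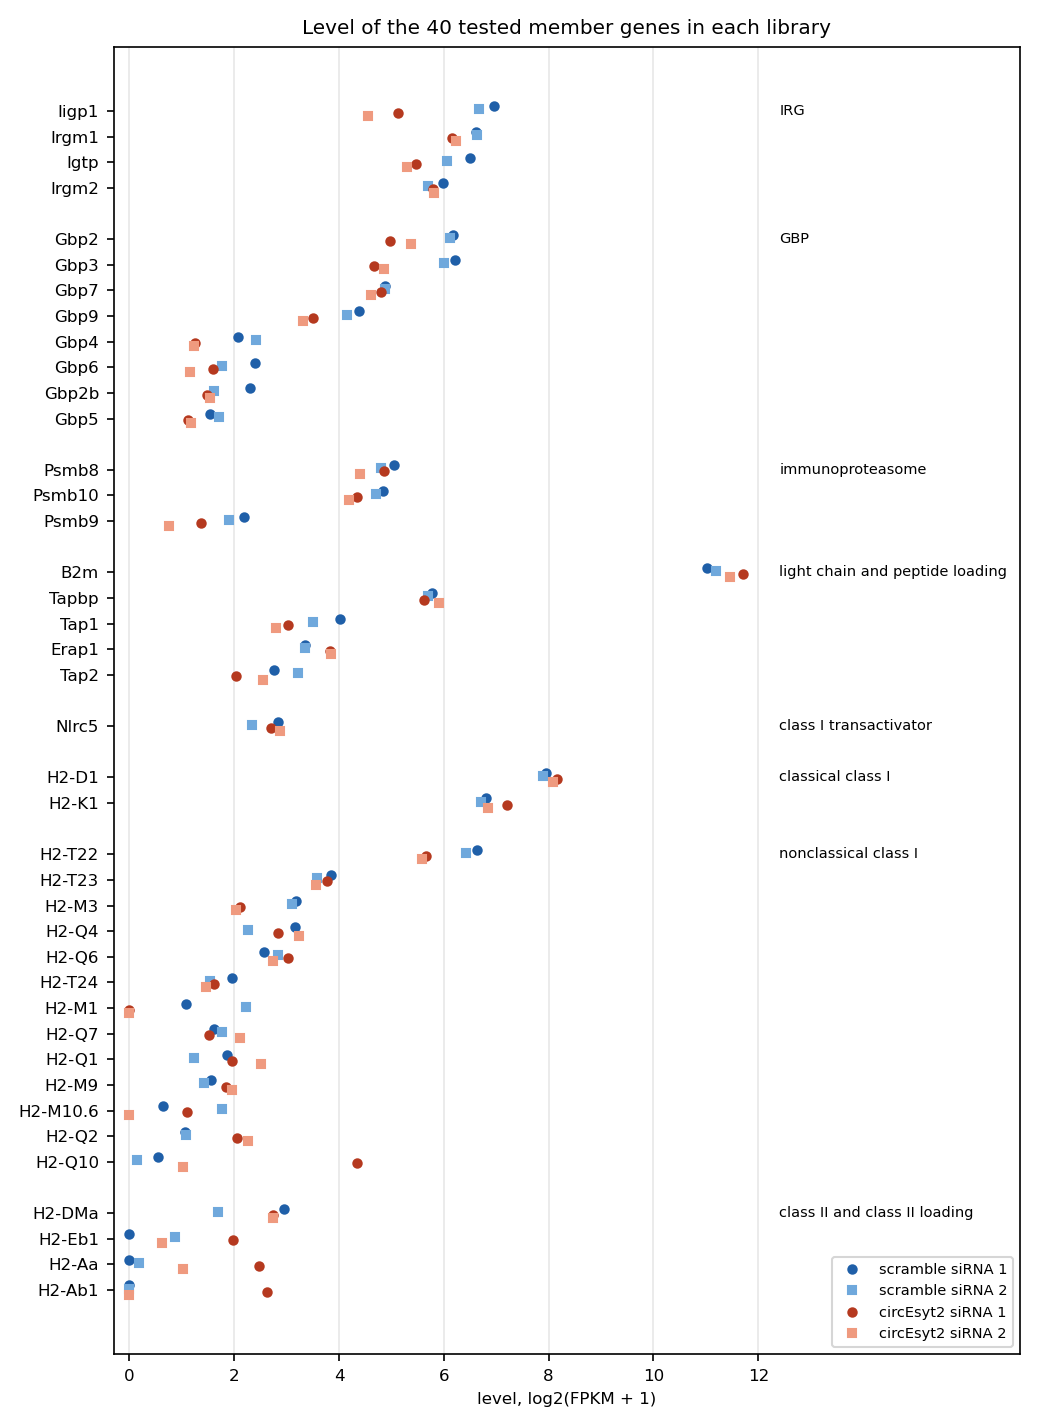
Level of each tested member on the log2(FPKM + 1) scale (horizontal) in the 4 libraries, grouped by role and ordered by the scramble mean; circles are replicate 1 and squares replicate 2 (blue, scramble siRNA; red, circEsyt2 siRNA). Iigp1, Gbp3 and H2-T22 are lower in both red libraries, B2m is the most abundant member, and H2-Q10 and H2-Ab1 are high in circEsyt2 siRNA replicate 1.

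The 4 IRG genes were among the abundant members, and 3 of them fell with circEsyt2 siRNA. Iigp1, which encodes an effector GTPase that loads onto parasite vacuoles, measured 124 and 101 FPKM with scramble siRNA and 33.7 and 22.5 FPKM with circEsyt2 siRNA. Both circEsyt2 siRNA libraries lay well under both scramble libraries, 3.99-fold lower by mean FPKM. Its log2 fold change was −1.98 (SE 0.21; limma, adjusted p = 0.00551), the largest decrease among the members that were called.

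Igtp, also known as Irgm3, is a regulatory IRG that sits on host membranes. It measured 89.2 and 65.8 FPKM with scramble siRNA and 43.5 and 38.1 FPKM with circEsyt2 siRNA. The groups did not overlap, although the scramble libraries were spread (77.5 ± 16.5 against 40.8 ± 3.79 FPKM, SD, n = 2), and the log2 fold change was −0.90 (SE 0.17; limma, adjusted p = 0.0274). Irgm1, another regulatory IRG, measured 96.8 and 97.9 FPKM against 70.1 and 74.0 FPKM. This was a smaller decrease, of 0.43 on the log2 scale (SE 0.10; limma, adjusted p = 0.0477), which stood just inside the threshold.

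Irgm2, the third regulatory IRG, measured 62.7 and 50.7 FPKM with scramble siRNA and 54.2 and 55.1 FPKM with circEsyt2 siRNA. The groups overlapped (log2 fold change −0.04, SE 0.14; limma, adjusted p = 0.856). In GENCODE M21 (GRCm38) Igtp (chr11:58199556-58207591) and Irgm2 (chr11:58199618-58222782) overlap on the plus strand. The Irgm2 stretch shown above precedes the RefSeq start and lies inside that longer GENCODE span, and it was identical to the Igtp stretch at 77 of the 79 bases compared. Their exons overlap by 162 bp in GENCODE M21, where fragments cannot be assigned to one of them alone. The ratio of Igtp to Irgm2 within a library, chosen after the values were seen, was 1.42 and 1.30 with scramble siRNA against 0.802 and 0.692 with circEsyt2 siRNA. Both circEsyt2 siRNA ratios were below both scramble ratios; the difference between the 2 genes was not tested.

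The calls of the IRG genes depended on single libraries to different degrees. With 1 library left out, an arm holds a single library, and the spread comes from the other arm alone. Without circEsyt2 siRNA replicate 1, the library with hepatocyte markers, the log2 fold change of Iigp1 was −2.26 (limma, adjusted p = 0.00963) and that of Igtp −0.99 (adjusted p = 0.0493), both still called. The call of Irgm1 was lost in that fit (−0.39; limma, adjusted p = 0.103) and without replicate 2 (−0.47; limma, adjusted p = 0.0915). Igtp lost its call without circEsyt2 siRNA replicate 2 (−0.80; limma, adjusted p = 0.134). Leaving out either scramble library ended every call given here, as it did every call over all genes tested. In those fits Iigp1 stood at −1.84 without scramble replicate 1 and −2.12 without replicate 2.

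Of the 10 GBP genes 8 were tested, and in all 8 both circEsyt2 siRNA libraries lay below both scramble libraries, a pattern that 31.1% of all genes tested showed. Of these 8, 3 passed the test as lower, against 7.26% of all genes. Gbp3 measured 73.1 and 63.1 FPKM with scramble siRNA and 24.5 and 28.1 FPKM with circEsyt2 siRNA, 2.59-fold lower by mean. Its log2 fold change was −1.34 (SE 0.14; limma, adjusted p = 0.00508). Gbp2, which encodes a prenylated GBP that binds membranes, measured 71.2 and 68.3 FPKM against 30.3 and 40.7 FPKM. The 2 genes had like levels with scramble siRNA, and Gbp2 fell by 0.97 on the log2 scale (SE 0.16; limma, adjusted p = 0.0191).

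Gbp9 was the third member of the family that fell, from 19.7 and 16.8 FPKM to 10.3 and 8.90 FPKM (log2 fold change −0.86, SE 0.16; limma, adjusted p = 0.0248). It lies in the chromosome 5 cluster, where Gbp4, Gbp8 and Gbp9 share 60 or 61 bp of exon in GENCODE M21, so some of their fragments cannot be told apart. Gbp4 measured 3.23 and 4.34 FPKM against 1.38 and 1.37 FPKM. Its fold by mean FPKM, 2.76-fold lower, was larger than that of Gbp3. The gene had 32 to 134 counts a library, stood at −1.0 on the log2 scale and did not pass the test (limma, adjusted p = 0.0587). Over 13 alternative fits Gbp4 was called in 2. These were the pseudocount of 0.1 (−1.39; limma, adjusted p = 0.0479) and voom (−1.48; limma, adjusted p = 0.0146).

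Gbp7 was above Gbp9 in FPKM in every library and had the fold change nearest 0 in the family. It measured 28.3 and 28.3 FPKM with scramble siRNA and 27.0 and 23.4 FPKM with circEsyt2 siRNA (log2 fold change −0.16, SE 0.13; limma, adjusted p = 0.442). Its exons share 637 bp with Gm43802 on the same strand in GENCODE M21, so some of its counts may not be its own. The ratio of Gbp3 to Gbp7, chosen after the values were seen, was 2.58 and 2.23 with scramble siRNA against 0.906 and 1.20 with circEsyt2 siRNA. The remaining tested GBP genes, Gbp2b, Gbp5 and Gbp6, were low, between 1.16 and 4.27 FPKM in every library, with log2 fold changes of −0.45, −0.48 and −0.71 that did not pass the test. Gbp6 shares 1726 bp of exon with Gm43302 on the same strand. Gbp8 and Gbp10 were under the filter, with 2 to 12 counts a library.

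The GBP cluster on chromosome 3 (Gbp2, Gbp2b, Gbp3, Gbp5 and Gbp7) had 2 of 5 tested genes lower, and the cluster on chromosome 5 (Gbp4, Gbp6 and Gbp9) had 1 of 3, against 7.26% of all genes. Medians were −0.48 and −0.86. In GENCODE M21 (GRCm38) Gbp3 spans chr3:142560026-142573209 and Gbp2 chr3:142620602-142638008, both on the plus strand, and Gbp9 spans chr5:105077630-105139539 on the minus strand. Without circEsyt2 siRNA replicate 1 Gbp3 stood at −1.24 (limma, adjusted p = 0.0162), Gbp2 at −0.76 (adjusted p = 0.0308) and Gbp9 at −0.96 (adjusted p = 0.0430), all still called, with the single circEsyt2 siRNA library assumed to vary like the scramble libraries. The call of Gbp9 was lost without circEsyt2 siRNA replicate 2 (−0.76; limma, adjusted p = 0.104). In the fits without scramble replicate 1 and without scramble replicate 2, where no gene was called, Gbp3 stood at −1.23 and −1.44.

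**Figure D2:**
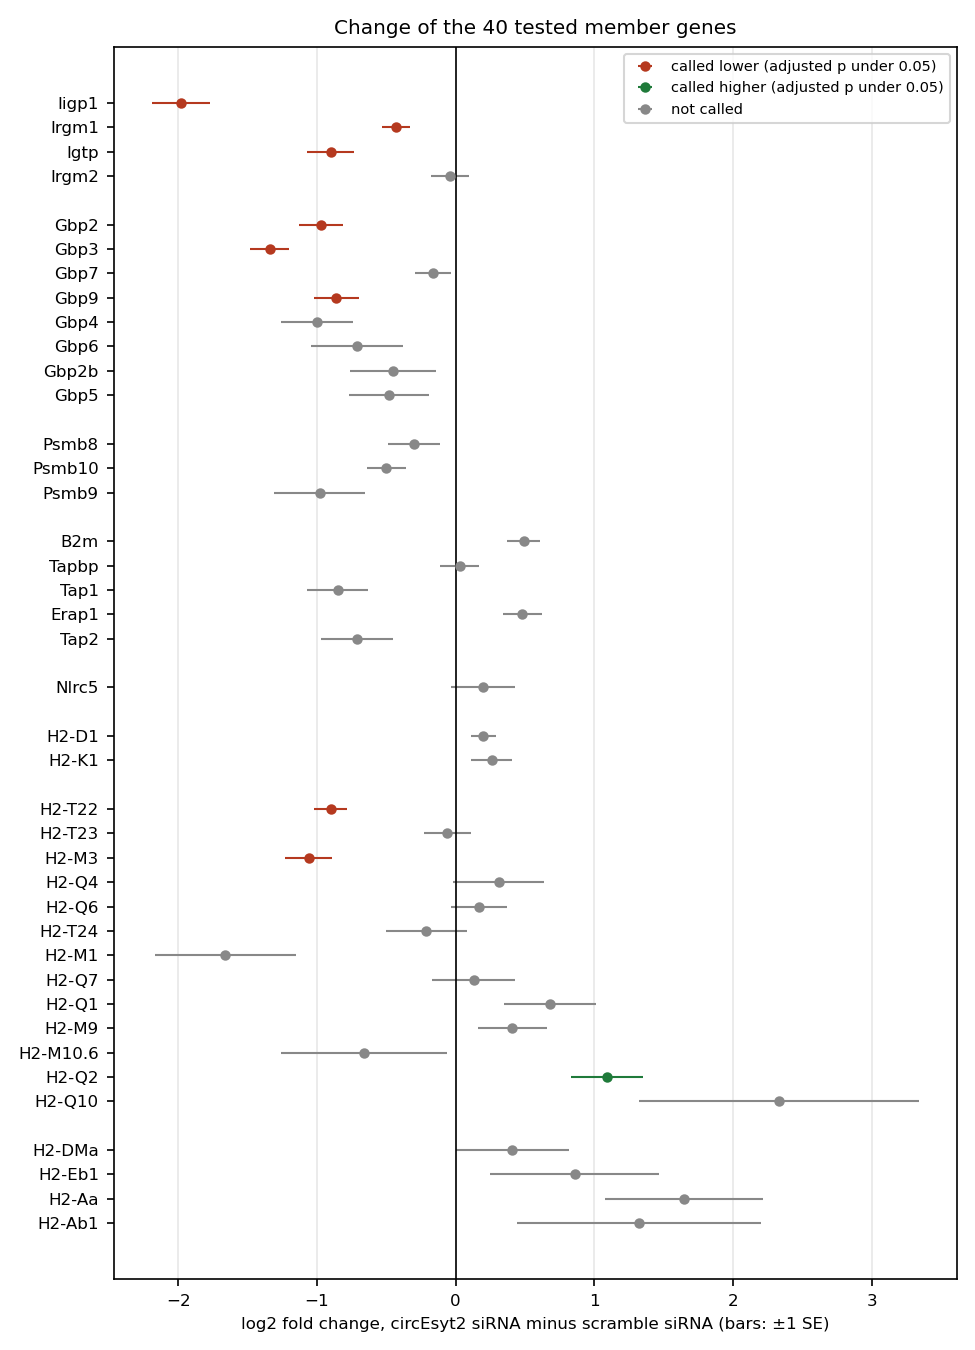
Log2 fold change of each tested member (circEsyt2 siRNA minus scramble siRNA, horizontal; bars, 1 SE to each side), in the order of the plot of levels; red marks members called lower, green the member called higher and grey those not called. The GBP and IRG genes lie left of 0, from −1.98 to −0.04, while the classical class I genes lie between 0.20 and 0.26.

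The classical class I heavy chains, which present peptides to cytotoxic T cells, were not lower with circEsyt2 siRNA in either library. H2-D1 measured 247 and 236 FPKM with scramble siRNA and 285 and 272 FPKM with circEsyt2 siRNA. H2-K1 measured 112 and 104 FPKM against 147 and 114 FPKM. In both genes the circEsyt2 siRNA libraries lay above the scramble libraries, as they did for 29.7% of all genes tested, and neither passed the test. Their log2 fold changes were 0.20 (SE 0.09; limma, adjusted p = 0.204) and 0.26 (SE 0.15; limma, adjusted p = 0.284). The H2-K1 value rested on circEsyt2 siRNA replicate 1: it was 0.08 without that library and 0.45 without replicate 2. Class I heavy chain genes resemble each other in sequence, so fragments can be shared among H2-K1, H2-D1, the H2-Q and the H2-T genes, and the split between them is uncertain.

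B2m, the light chain of every class I molecule, was the most abundant member and ranked 9 and 7 among all genes in the scramble libraries. It measured 2072 and 2329 FPKM with scramble siRNA and 3361 and 2827 FPKM with circEsyt2 siRNA. The 2 groups did not overlap and the level was 1.41-fold higher by mean, but B2m missed the threshold narrowly (log2 fold change 0.49, SE 0.12; limma, adjusted p = 0.0506). Over the 14 alternative fits its change stayed between 0.36 and 0.61 and it was called in 7 of them. Without circEsyt2 siRNA replicate 1 it stood at 0.36 (limma, adjusted p = 0.0960).

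Peptide supply and loading genes did not go one way. Tap1 and Tap2 encode the subunits of the peptide transporter. Tap1 measured 15.2 and 10.4 FPKM with scramble siRNA and 7.18 and 5.96 FPKM with circEsyt2 siRNA, and Tap2 measured 5.78 and 8.35 FPKM against 3.09 and 4.82 FPKM. Both were lower in each circEsyt2 siRNA library and neither passed the test (limma, adjusted p = 0.0585 and 0.138). Over 14 alternative fits Tap1 was called in 4 and Tap2 in 0. Tap1 moved from −0.59 to −1.10 depending on which scramble library was left out, the first of these without scramble replicate 1, where its level was highest. Tap2 stood at −0.45 without circEsyt2 siRNA replicate 1 and at −0.96 without replicate 2.

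Erap1, the aminopeptidase that trims peptides to the length that class I holds, measured 9.23 and 9.28 FPKM against 13.2 and 13.4 FPKM. Its replicates were tight and the groups well apart, yet with the spread shared across genes it did not pass (log2 fold change 0.48, SE 0.14; limma, adjusted p = 0.0766). Its exons share 834 bp with Cast on the other strand, and no strand setting is given in the sources used here. Tapbp, which encodes tapasin, the bridge between TAP and the heavy chain, measured 54.0 and 51.0 FPKM against 48.5 and 59.1 FPKM, with overlapping groups. Nlrc5, the transactivator of class I genes, measured 6.18 and 4.03 FPKM against 5.47 and 6.33 FPKM, also overlapping (log2 fold change 0.20, SE 0.23; limma, adjusted p = 0.604).

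The 3 inducible subunits that turn the proteasome into the immunoproteasome were lower by mean, and none passed the test. Psmb10 measured 27.5 and 25.1 FPKM against 19.3 and 17.3 FPKM (log2 fold change −0.50, SE 0.14; limma, adjusted p = 0.0650). Psmb9 measured 3.58 and 2.72 FPKM against 1.60 and 0.699 FPKM (−0.98, SE 0.33; adjusted p = 0.112), and it shares 212 bp of exon with Tap1 on the other strand. Psmb8 measured 32.1 and 27.0 FPKM against 28.1 and 20.1 FPKM, with overlapping groups (−0.30, SE 0.19; adjusted p = 0.347). Its log2 fold change was −0.53 without circEsyt2 siRNA replicate 1 and −0.07 without replicate 2.

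Each inducible subunit replaces a constitutive one, so the pair can be set as a ratio of FPKM within a library, a measure per length that does not depend on the library total. Psmb10 to Psmb7 was 1.38 and 1.23 with scramble siRNA against 0.849 and 0.859 with circEsyt2 siRNA. Psmb8 to Psmb5 was 0.519 and 0.357 against 0.300 and 0.283, and Psmb9 to Psmb6 was 0.0632 and 0.0463 against 0.0209 and 0.0139. In all 3 pairs both circEsyt2 siRNA ratios were below both scramble ratios. Of all genes tested 31.1% showed that pattern in their own FPKM, and no such share was computed for ratios. Psmb9 rested on 8 to 41 counts a library. The ratios are given as a description and were not tested. The constitutive subunits themselves overlapped between groups. Psmb5 measured 61.9 and 75.7 FPKM against 93.7 and 71.1 FPKM. Psmb6 measured 56.7 and 58.8 FPKM against 76.5 and 50.4 FPKM, and Psmb7 measured 19.9 and 20.4 FPKM against 22.7 and 20.1 FPKM.

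**Figure D3:**
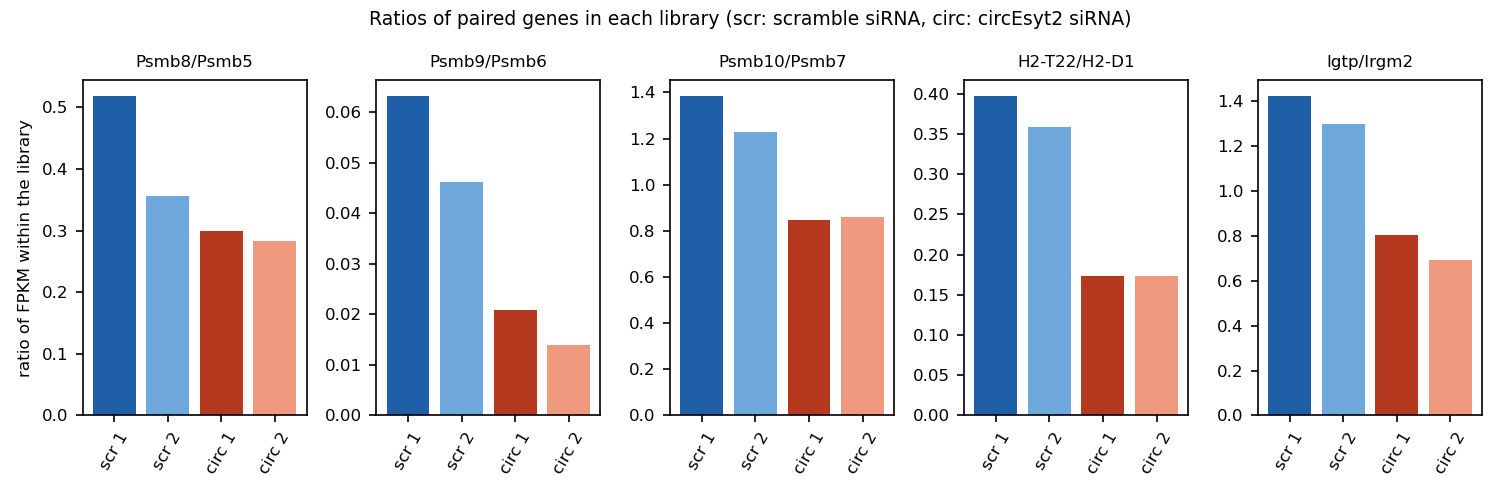
Ratio of FPKM of 2 genes within each library (vertical, from 0), 1 panel a pair: the 3 inducible to constitutive proteasome subunits, H2-T22 to H2-D1 and Igtp to Irgm2; blue bars are scramble siRNA and red bars circEsyt2 siRNA, 1 bar a library. Both red bars are lower than both blue bars in every panel, for example 0.849 and 0.859 against 1.38 and 1.23 for Psmb10 to Psmb7.

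Nonclassical class I genes showed calls in both directions: of 22 genes 13 were tested, 2 were lower, 1 was higher and 10 did not pass, against 7.26% lower and 5.47% higher over all genes. H2-T22, whose product is seen by gamma delta T cells, measured 98.1 and 84.6 FPKM with scramble siRNA and 49.4 and 47.1 FPKM with circEsyt2 siRNA. It was the most abundant nonclassical gene and somewhat under H2-K1 in FPKM with scramble siRNA, and it fell by 0.90 in log2 units (SE 0.12; limma, adjusted p = 0.0107). Its ratio to H2-D1, chosen after the values were seen, was 0.397 and 0.358 with scramble siRNA against 0.173 and 0.173 with circEsyt2 siRNA. Its exons share 1003 bp with the other-strand gene A930015D03Rik, so counts of the 2 genes cannot be told apart there. In GENCODE M21 (GRCm38) H2-T22 spans chr17:36037128-36042747 on the minus strand, and H2-M3 and H2-Q2 span chr17:37270220-37274484 and chr17:35342242-35346762 on the plus strand.

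H2-M3, which presents peptides that begin with formylmethionine, as bacterial and mitochondrial peptides do, measured 8.01 and 7.60 FPKM against 3.32 and 3.11 FPKM. The replicates were tight and the groups did not overlap. The fall of 1.06 on the log2 scale (SE 0.17; limma, adjusted p = 0.0181) rested on 14 to 45 counts a library. With voom on the recovered counts the call of H2-M3 was lost (−1.24, SE 0.49; limma, adjusted p = 0.116). Without circEsyt2 siRNA replicate 1 both calls stood, H2-T22 at −0.94 (limma, adjusted p = 0.0264) and H2-M3 at −1.10 (adjusted p = 0.0417). Without circEsyt2 siRNA replicate 2 both were lost, at −0.87 (limma, adjusted p = 0.0648) and −1.03 (adjusted p = 0.0803). Without scramble replicate 1 or 2, H2-T22 stood at −0.80 and −1.01 with no call.

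H2-Q2 was the 1 member that rose, from 1.09 and 1.11 FPKM to 3.17 and 3.81 FPKM, 3.16-fold by mean. The level is low, with 6 and 10 counts with scramble siRNA against 26 and 26 with circEsyt2 siRNA. Its increase of 1.09 on the log2 scale (SE 0.26; limma, adjusted p = 0.0498) was only just inside the threshold, and leaving out any 1 of the 4 libraries ended the call, with values from 0.99 to 1.19. Over 13 alternatives the call was kept in 5. Other H2-Q genes near it on chromosome 17 were not called: H2-Q1 measured 2.64 and 1.36 FPKM against 2.88 and 4.70 FPKM, H2-Q4 measured 7.96 and 3.84 FPKM against 6.14 and 8.38 FPKM, and H2-Q6 and H2-Q7 lay between 1.87 and 7.13 FPKM in every library. H2-T23, the gene of Qa-1, measured 13.5 and 11.01 FPKM against 12.6 and 10.7 FPKM, with overlapping groups.

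H2-Q10 encodes a secreted class I molecule made mainly by the liver. It measured 0.457 and 0.112 FPKM with scramble siRNA and 19.3 and 1.03 FPKM with circEsyt2 siRNA (limma, adjusted p = 0.187). The high value came from replicate 1, with 316 counts against 2 to 14 in the others. The hepatocyte marker Alb, the albumin gene, was high in the same library, at 2083 FPKM against 65.7 FPKM in replicate 2, with 9.16 and 1.66 FPKM in the scramble libraries. All 10 hepatocyte markers reached 1 FPKM in replicate 1, 7 did in replicate 2, and 2 did in each scramble library. Their part in the H2-Q10 value was not tested. Without replicate 1 H2-Q10 fell under the filter and was not tested, and without replicate 2 it was called higher (4.00; limma, adjusted p = 0.0323).

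The class II antigen-presenting chains H2-Ab1, H2-Aa and H2-Eb1 were under 1 FPKM in both scramble libraries. H2-Ab1 measured 0 and 0 FPKM with scramble siRNA and 5.19 and 0 FPKM with circEsyt2 siRNA, and H2-Aa measured 0 and 0.130 FPKM against 4.54 and 1.02 FPKM. H2-Eb1 measured 0 and 0.821 FPKM against 2.92 and 0.540 FPKM. The level was again highest in circEsyt2 siRNA replicate 1, and no class II gene passed the test. Cd74, the invariant chain gene of class II, measured 19.97 FPKM in that library and 0.172 to 1.36 FPKM in the others, and Ciita, the class II transactivator gene, had 19 counts there and 0 to 5 in the others. Without replicate 2 limma called H2-Aa (2.38; adjusted p = 0.0459) and H2-Ab1 (2.63; adjusted p = 0.0425) higher, a comparison of that 1 library with the scramble libraries in which the spread comes from the scramble libraries alone. Without replicate 1 both fell under the filter.

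Cells that carry class II were checked by their markers. The 9 macrophage markers summed to 39.9 FPKM in circEsyt2 siRNA replicate 1, to 9.13 in replicate 2, and to 13.1 and 16.2 in the scramble libraries, and 6 of the 9 reached 1 FPKM in replicate 1 against 3 in each other library. Lyz2, the lysozyme gene of macrophages, measured 21.4 FPKM in replicate 1 and 0.923 to 1.21 in the other libraries, while Itgam was at 0 in both circEsyt2 siRNA libraries. The 6 dendritic cell markers summed to 0.861 to 3.005 FPKM and the 8 lymphocyte markers to 1.12 to 2.24 FPKM over the 4 libraries, and none of the lymphocyte markers reached 1 FPKM. Their part in the class II values was not tested. H2-DMa, a peptide-loading gene of class II, measured 6.78 and 2.22 FPKM against 5.67 and 5.65 FPKM and did not follow that library. It shares 360 bp of exon with Brd2 on the other strand.

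**Figure D4:**
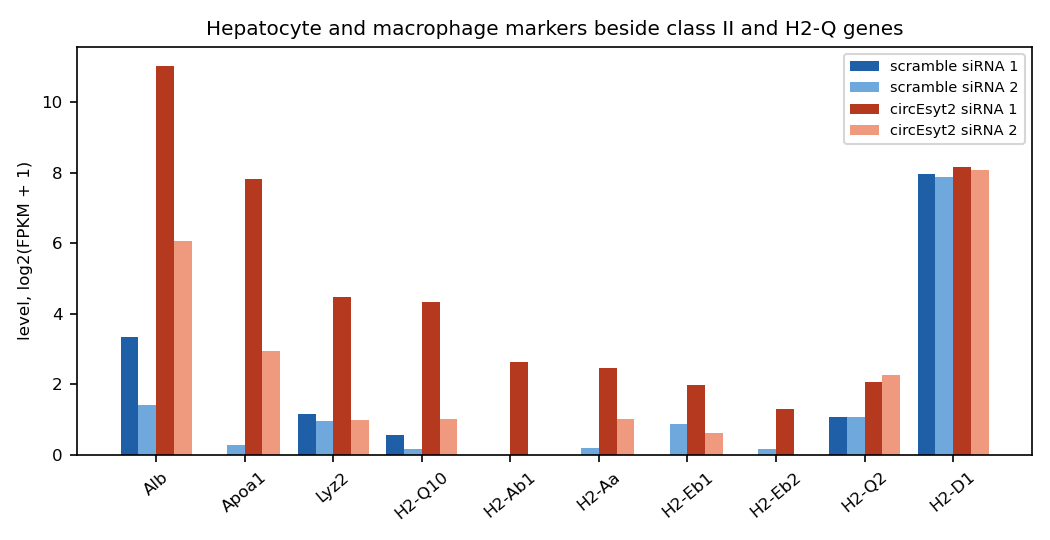
Level on the log2(FPKM + 1) scale (vertical, from 0) of the hepatocyte markers Alb and Apoa1, the macrophage marker Lyz2, H2-Q10, 4 class II genes, H2-Q2 and H2-D1; 1 bar a library (blue, scramble siRNA; red, circEsyt2 siRNA). The dark red bar, circEsyt2 siRNA replicate 1, is above the others for Alb, Apoa1, Lyz2, H2-Q10 and the 4 class II genes plotted (H2-Ab1, H2-Aa, H2-Eb1 and H2-Eb2), and close to its replicate for H2-Q2 and H2-D1.

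Members under the filter added little. There were 17 of them, with values from 0 to 1.58 FPKM and at most 12 recovered counts in any library. For the class II genes among them the recovered counts are minimum numbers. The 17 comprised H2-M2, H2-M5, H2-M11, H2-M10.1 to H2-M10.5, H2-T3, H2-Oa, H2-Ob, H2-DMb1, H2-DMb2, H2-Eb2, H2-Ke6, Gbp8 and Gbp10. H2-M1 and H2-M10.6 passed the filter with 3 and 16 and with 2 and 14 counts in the scramble libraries. H2-M1 had 0 and 0 counts with circEsyt2 siRNA, and its decrease did not pass the test (limma, adjusted p = 0.0910). H2-M9 measured 1.93 and 1.68 FPKM against 2.58 and 2.88 FPKM and was not called (adjusted p = 0.324).

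The core motif was held by members that fell and by members that did not. Of the 6 members called lower that had a promoter window, 5 held the GAAA-GAAA core (Gbp2, Gbp3, Igtp, Irgm1 and H2-T22), and H2-M3 did not. Among the 24 members with a window that were tested and not called, 7 held it: Gbp2b, Gbp5, Gbp7, Irgm2, H2-T23, B2m and Erap1. Of these, B2m and Erap1 were higher with circEsyt2 siRNA in both libraries. The gamma-activated site, another DNA site of interferon-induced promoters, searched as TTCNNNGAA, was found in 8 of the 46 members (17.4%) and in 9.55% of all genes in the table. It stood in Gbp5, Gbp7, Igtp, Irgm2 and Psmb8, among others, again on both sides of the calls.

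Genes of the surrounding pathway were taken from 4 lists, to be read against 7.26% lower, 5.47% higher and a median of 0.004 over all genes tested. Of 17 tested genes of interferon gamma and type I interferon signalling 3 were lower and 0 higher, against 7.26% and 5.47% of all genes. Their median log2 fold change was −0.18. The list also holds the class II gene Cd74, and the interferon gamma receptor genes Ifngr1 and Ifngr2 were not called. Socs3, a feedback inhibitor of cytokine receptors, measured 13.1 and 13.9 FPKM with scramble siRNA against 4.23 and 4.65 FPKM with circEsyt2 siRNA. It fell by 1.42 in log2 units (SE 0.16; limma, adjusted p = 0.00627). Ifnar2, a subunit of the type I interferon receptor, was also called lower, just inside the threshold (−0.59, SE 0.14; limma, adjusted p = 0.0477). Its values in the alternative fits are not given here. Irf1, the factor through which interferon gamma reaches many of these promoters, measured 11.9 and 8.86 FPKM against 11.02 and 8.20 FPKM, with overlapping groups (limma, adjusted p = 0.781). Ifng and Ciita were under the filter, and Ifng had 0 to 3 counts a library.

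Among other interferon-inducible GTPases 3 of 10 tested were lower and 1 was higher, against 7.26% and 5.47% of all genes, with a median of −0.57. F830016B08Rik measured 19.2 and 19.1 FPKM against 6.61 and 6.98 FPKM and thus fell by 1.37 in log2 units (SE 0.14; limma, adjusted p = 0.00508). Mx1, the antiviral dynamin-like GTPase, measured 5.14 and 3.79 FPKM against 1.12 and 0.676 FPKM and fell by 1.52 (SE 0.29; limma, adjusted p = 0.0258), a call lost without circEsyt2 siRNA replicate 2 (−1.35; adjusted p = 0.0894). Ifi47, a further IRG, was the third that fell (limma, adjusted p = 0.0393). The 1 that rose was 9930111J21Rik1, from 3.90 and 4.02 FPKM to 6.84 and 9.41 FPKM, just inside the threshold (limma, adjusted p = 0.0473). For Ifi47 and 9930111J21Rik1 the alternative fits are not given here.

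Of 22 tested other genes of class I presentation 2 were lower and 0 higher, with a median of −0.10, a share near the 7.26% of all genes. Calr encodes calreticulin, the chaperone that holds the heavy chain during loading. It measured 676 and 662 FPKM against 406 and 404 FPKM and thus fell by 0.72 in log2 units (SE 0.08; limma, adjusted p = 0.00743). Npepps, a cytosolic aminopeptidase gene, measured 35.7 and 36.5 FPKM against 21.1 and 20.5 FPKM and fell by 0.77 (SE 0.12; limma, adjusted p = 0.0152), a call lost without circEsyt2 siRNA replicate 2 (−0.75; adjusted p = 0.0648).

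Class I-like genes without an H2- symbol had 1 of 9 tested genes lower and 0 higher, with a median of −0.02, a share near the 7.26% of all genes. Mr1, which presents vitamin B metabolites to MAIT cells, measured 6.18 and 7.27 FPKM against 3.20 and 2.30 FPKM and thus fell by 1.05 in log2 units (SE 0.22; limma, adjusted p = 0.0335). Its call was lost without circEsyt2 siRNA replicate 2 (−0.88; limma, adjusted p = 0.114). Azgp1, a secreted class I-like gene, measured 0 and 0.302 FPKM against 29.9 and 0.795 FPKM, so it was high in the library with hepatocyte markers, and it was not called (adjusted p = 0.204).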

How the data were processed

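The authors deposited 1 table of FPKM per library, with 1 row per gene symbol. Per the submitters' processing notes, Trimmomatic, HISAT2 and featureCounts were used with GRCm38 and mm10; no version, setting, strandedness or annotation release is given in the sources used here. Since FPKM is relative to the library total, abundant genes such as the hepatocyte transcripts lower every other value. In circEsyt2 siRNA replicate 1 the 10 hepatocyte markers held 3037 of 310669 FPKM, and other liver transcripts were not summed. Trimmed mean scaling gave that library a factor of 0.991, against 0.997 to 1.01 for the others.

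Counts were recovered from the FPKM values with exon-union lengths of GENCODE M21, which gave whole numbers within 0.0001 for 96.3% of the values above 0. For other genes, H2-K1, Psmb8, Psmb9, Iigp1 and the class II genes among them, the smallest length giving whole numbers was solved, so their counts are minimum numbers. A count need not be 1 fragment: 69.2% of counts from 1 to 20 were even.

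limma 3.58.1 in R 4.3.3 (eBayes with a trend, two-sided) was run on log2(FPKM + 1), whose fold changes understate low genes, wherever the mean over the 4 libraries reached 1 FPKM. The limma fit was also run on simulated counts in which no library stood apart, and no result here rests on that run. Members are named by role in order of p, and from each pathway list the 2 genes with the smallest p; other genes were named after their values were seen. One gene that this rule names is not reported here. The members and lists were chosen with earlier results of these data known. Genes overlapping on the genome can share counts. Motifs are letter matches in RefSeq windows (GRCm38.p6). Alternatives covered the pseudocount, filter, scaling, trend, replicate block, each library left out and limma's voom on the recovered counts. Protein sequences were not used here.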

Additional observations from a re-analysis of the deposited data

How the results depend on the processing

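Leaving out 1 library at a time gave 0 to 7 members lower, 0 to 3 higher and a member median of −0.39 to −0.05, with 0 to 622 genes lower and 0 to 405 higher over all genes. The median of −0.39 is without circEsyt2 siRNA replicate 1, where 35 members were tested, and that of −0.05 without scramble replicate 1. Without a trend in eBayes 3 members were lower (Gbp3, Iigp1 and H2-M3), with 374 genes lower and 203 higher over all genes. The call of H2-M3 was lost with voom. With the replicate block 8 members were lower and 0 higher, with 604 genes lower and 404 higher over all genes; the calls of Irgm1 and H2-Q2 were lost and Tap1 gained one. The replicate numbers were not taken as pairs, since deviations of same-numbered libraries correlated at −0.0507. Members higher numbered 2 with pseudocounts of 0.1 and 0.5, trimmed mean and median ratio scaling, and voom. In these fits B2m was added or, with voom, B2m and Erap1 replaced H2-Q2. Members higher numbered 0 with no filter on low values. Calls as lower were gained by Gbp4 and Tap1 with a pseudocount of 0.1 and with voom. With a mean FPKM of at least 5, Psmb10 and Tap1 gained such calls. Of the 647 alternative values of named genes 557 kept direction and side of the threshold, 61 lost the call, 19 gained one and 10 changed sign. The sign changes were in uncalled genes with 1 library left out, with ranges of −0.22 to 1.05 for H2-DMa, −0.13 to 0.76 for H2-Q4, −0.17 to 0.42 for H2-Q7, −0.20 to 0.07 for H2-T23, −0.43 to 0.01 for H2-T24, −0.19 to 0.11 for Irgm2, −0.06 to 0.45 for Nlrc5 and −0.11 to 0.17 for Tapbp. The cause was not tested. For a gene 1 kb long a single count gave 0.243 to 0.397 FPKM, depending on the library, which limits every member under the filter.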

Other observations

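The recovered counts were more often even than odd. Over genes with a GENCODE M21 length, 6689 values stood at 2 counts and 2234 at 1, and 3999 stood at 4 and 1529 at 3.

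Summed over each family, the IRG genes measured 372 and 316 FPKM with scramble siRNA and 201 and 190 FPKM with circEsyt2 siRNA, and the GBP genes measured 208 and 189 FPKM against 99.5 and 107 FPKM. The classical class I heavy chains summed to 359 and 340 FPKM against 433 and 385 FPKM. The sum of the 4 IRG genes was thus close to that of the 2 classical heavy chains with scramble siRNA and under it with circEsyt2 siRNA.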
